A study of Homo sapiens with 4 samples.

Results

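USP16, CCT8, LTN1, RWDD2B, BACH1, SOD1, SCAF4, HUNK, MIS18A and URB1 are 10 genes of the long arm of chromosome 21, and their RNA was compared between the colorectal cancer cell line COLO-320DM and its subline 320IWR. They were selected with the intensities of this same comparison in view, so their values are given as a description, without a test, and lend support to nothing. All probe sets annotated to exactly 1 symbol, that of one of these genes, were taken. There are 27 of them among 54613 probe sets without controls, and the 10 genes stand among 19775 genes measured. Total RNA was hybridised to 4 Affymetrix U133 Plus 2.0 arrays, 2 of each line. COLO-320DM is the parental line, which carries a mutated APC gene, and 320IWR was derived from it by lasting culture with IWR-1, an inhibitor of the tankyrases, until the cells were resistant. The resistant line is 1 subline, and whether IWR-1 was in its medium when RNA was taken is not given in the sources used here. Nothing says that the arrays of a line came from separate cultures, so the spread between them may be technical.

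The 10 genes do not form a family. They have their place on the chromosome in common and serve different processes. BACH1 is a heme-sensing transcription factor that pairs with small MAF proteins and silences genes of heme breakdown and oxidant defence, and SOD1 is the copper- and zinc-containing enzyme that turns superoxide into hydrogen peroxide in the cytoplasm. Both are widely studied in Down syndrome, in which a further copy of chromosome 21 is present. LTN1, RWDD2B, USP16, CCT8, BACH1, SOD1, SCAF4, HUNK, MIS18A and URB1 follow each other in this order from centromere to telomere in the gene table of GRCh38.p14. The arrays measured RNA, and the number of DNA copies was not measured here.

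Promoter sequences are given because most of the genes had higher intensities in the same line, and they show what the genes carry at their starts. RefSeq promoters of GRCh38.p14, each of 300 bases around a transcript start, were at hand for 6 of the 10 genes in 8 entries (LTN1, USP16, CCT8, HUNK and URB1 with 1 each and BACH1 with 3). The promoters of RWDD2B, SOD1, SCAF4 and MIS18A were not analysed here. The motifs were chosen after the sequences had been seen, were searched on both strands with overlapping matches counted, and a match is a description of letters only. LTN1 lies at chr21:28992828-28993127 on the minus strand and USP16 at chr21:29024418-29024717 on the plus strand. Their sequences are shown because they were the only 2 of the 8 entries with the ETS-type motif CCGGAAGT, given in capitals. The first BACH1 entry, chr21:29298672-29298971 on the plus strand, is shown for its 7 GC boxes, GGGCGG on either strand, in capitals.
LTN1: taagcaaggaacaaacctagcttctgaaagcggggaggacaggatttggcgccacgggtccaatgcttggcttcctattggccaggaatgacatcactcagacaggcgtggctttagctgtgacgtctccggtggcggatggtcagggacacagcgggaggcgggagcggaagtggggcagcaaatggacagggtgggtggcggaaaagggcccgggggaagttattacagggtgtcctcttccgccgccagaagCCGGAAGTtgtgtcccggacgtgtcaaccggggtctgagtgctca
USP16: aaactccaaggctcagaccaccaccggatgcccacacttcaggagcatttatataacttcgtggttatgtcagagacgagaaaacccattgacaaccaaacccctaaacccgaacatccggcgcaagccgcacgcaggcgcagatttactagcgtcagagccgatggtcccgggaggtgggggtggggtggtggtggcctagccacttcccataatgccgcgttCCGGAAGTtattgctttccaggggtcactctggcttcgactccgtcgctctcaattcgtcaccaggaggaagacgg
BACH1: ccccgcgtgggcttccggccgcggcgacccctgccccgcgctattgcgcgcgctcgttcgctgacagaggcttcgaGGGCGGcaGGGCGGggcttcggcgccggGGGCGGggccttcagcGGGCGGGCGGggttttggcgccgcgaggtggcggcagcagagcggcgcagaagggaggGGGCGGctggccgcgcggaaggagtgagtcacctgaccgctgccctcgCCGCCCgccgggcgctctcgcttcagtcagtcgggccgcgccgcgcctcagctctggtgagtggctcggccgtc
The ETS-type motif began at position 256 in LTN1 and at position 225 in USP16, counted from 1 at the 5′ end of the window, and 4.14% of 35116 promoters of the same length hold it. GC boxes were in 5 of the 8 entries, those of CCT8, HUNK and URB1 and 2 of BACH1, against 45% of all promoters. The letters CCAAT were in CCT8 and LTN1, against 34.6% of all promoters. The core of the antioxidant response element, TGACNNNGC, which BACH1 and its partners bind, was in 0 of the 8 entries and in 13.3% of all promoters. HUNK, which was not higher in 320IWR cells, shared the GC box with BACH1, CCT8 and URB1.

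Of the 10 genes, each represented by its brightest probe set (the highest mean of log2 intensities), 9 had higher intensities in 320IWR cells and 1, HUNK, lower ones. Their median log2 fold change was 0.83, a 1.77-fold difference, against 0.02 over all 19775 genes. Both 320IWR arrays lay above both COLO-320DM arrays in 8 genes and below them in HUNK, and the arrays of the lines overlapped in URB1. Over all 19775 genes, 4162 had both 320IWR arrays above both COLO-320DM arrays and 3468 had them below. Over all probe sets, the shares were 19.5% above and 16.1% below. The size of the difference between the arrays of one line had a median of 0.19 on the log2 scale for COLO-320DM and 0.13 for 320IWR, and URB1 had the largest in both, 1.08 and 0.73. In the limma fit across all probe sets, 0.37% were called, meaning at least 2-fold apart with p under 0.05 after Benjamini-Hochberg adjustment, and 0 of the 27 probe sets of these genes were. At an unadjusted p under 0.05 there were 17 of the 27, against 9.71% of all probe sets. By gene the counts were 0 of 10 called and 9 of 10 at an unadjusted p under 0.05, against 0.592% and 12.3% of all genes. Since the genes were selected on these values, nothing is read from these counts. Standard errors given below are those of the limma fit, which moderates the spread of each probe set with that of all probe sets. They do not show the spread of its own arrays alone.

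**Figure D1:**
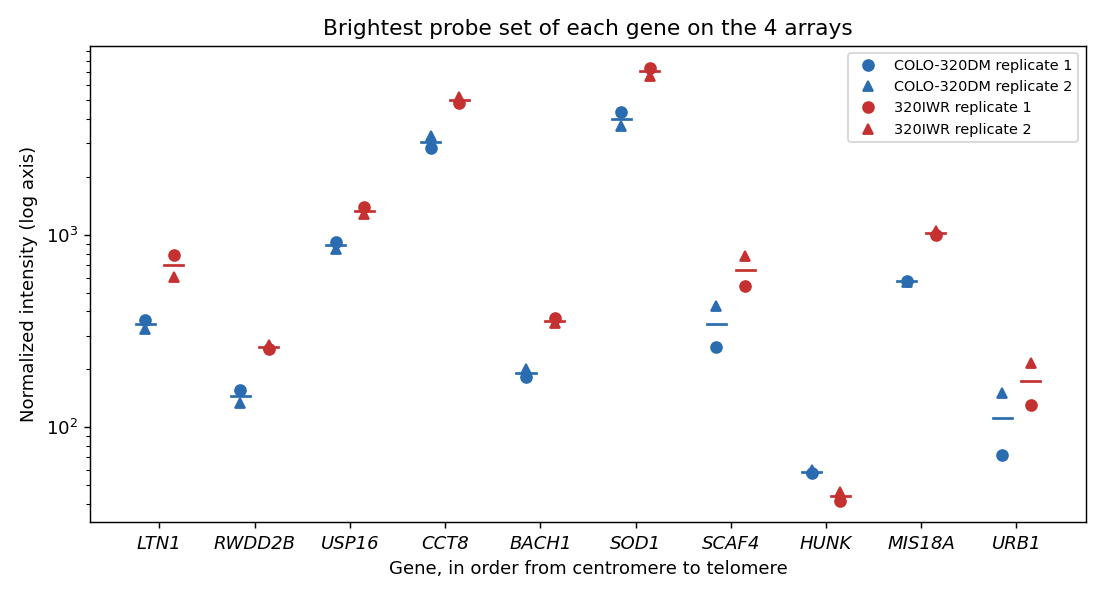
Normalized intensity (log axis) of the brightest probe set of each of the 10 genes, in chromosomal order, on the 2 COLO-320DM arrays (blue) and the 2 320IWR arrays (red), with the replicate number as the symbol and the mean of a line as a bar. The red points lie above the blue ones in 8 genes, below them in HUNK, and between and above them in URB1.

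BACH1 and SOD1, the genes of the response to heme and oxidants, were both higher in 320IWR cells. The BACH1 probe set 204194_at had intensities of 181.7 and 200.2 in COLO-320DM cells and 370.6 and 347.1 in 320IWR cells, a log2 fold change of 0.91 (standard error 0.13, n = 2 arrays per line). Its arrays stood well apart, with the values close together within each line and a 1.88-fold difference between the line means. The other BACH1 probe sets of the selection were dim and did not follow it. 234938_at read 25.4 on both COLO-320DM arrays and on 1 of the 320IWR arrays and 20.8 on the other, and 234315_at read 15.0 and 16.5 against 17.7 and 16.5. Both overlapped between the lines, at log2 fold changes of -0.14 and 0.12. Another 3 probe sets that name BACH1 together with other symbols fell outside the selection. SOD1 was measured by 1 probe set, 200642_at, which read 4346 and 3681 in COLO-320DM cells and 7392 and 6724 in 320IWR cells. The lower 320IWR array was far above the higher COLO-320DM array, and the log2 fold change was 0.82 (standard error 0.14, n = 2 arrays per line).

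CCT8 and LTN1 act on the folding and the clearance of proteins. CCT8, the theta subunit of the CCT chaperonin, which folds actin and tubulin, read 2814 and 3262 in COLO-320DM cells and 4818 and 5215 in 320IWR cells with 200873_s_at, a log2 fold change of 0.73 (standard error 0.14, n = 2 arrays per line). Its dim probe set 210436_at also had both 320IWR arrays higher, 23.1 and 21.2 against 27.6 and 27.5, with a smaller log2 fold change of 0.32. LTN1 encodes listerin, the ubiquitin ligase that marks unfinished chains on stalled ribosomes for destruction. Its probe set 215596_s_at read 361.7 and 324.1 in COLO-320DM cells and 783.9 and 605.4 in 320IWR cells, and at 1.01 (standard error 0.17, n = 2 arrays per line) its log2 fold change was the highest of the 27. For 233819_s_at the values were 35.3 and 59.2 against 66.7 and 123.9, a similar log2 fold change of 0.99 with a standard error of 0.39 from widely spread arrays. The remaining probe set of LTN1, 233818_at, lay between 6.67 and 7.05 on all 4 arrays and did not separate the lines.

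USP16, SCAF4 and MIS18A work in the nucleus on chromatin and transcription. USP16 removes ubiquitin from histone H2A, and its 3 probe sets gave even differences, at log2 fold changes of 0.60, 0.57 and 0.52. The probe set 218386_x_at read 921.0 and 845.5 in COLO-320DM cells and 1390 and 1282 in 320IWR cells, and all 3 kept the lines apart. SCAF4 binds the tail of RNA polymerase II and keeps transcripts from ending too early. Its probe set 226082_s_at read 261.5 and 429.4 in COLO-320DM cells against 541.5 and 776.8 in 320IWR cells, a log2 fold change of 0.95 (standard error 0.31, n = 2 arrays per line). The arrays did not overlap, but the 2 COLO-320DM arrays differed from each other by 0.72 on the same scale. The 4 dimmer probe sets of SCAF4 had log2 fold changes of 0.64 to 0.71. In 1 of them, 222310_at, the arrays overlapped, with 42.4 and 20.1 against 57.4 and 37.5. MIS18A belongs to the complex that prepares centromeres for new CENP-A, the histone variant that marks them. Its 3 probe sets lay close together, at log2 fold changes of 0.84, 0.86 and 0.79, and all kept the lines apart. 228597_at read 578.1 and 567.3 in COLO-320DM cells and 1003 and 1042 in 320IWR cells (standard error 0.12, n = 2 arrays per line).

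RWDD2B, URB1 and HUNK complete the set. RWDD2B, a protein with an RWD domain, read 156.3 and 134.5 in COLO-320DM cells and 256.2 and 268.0 in 320IWR cells with 218377_s_at, a log2 fold change of 0.85 (standard error 0.14, n = 2 arrays per line), and its other probe set gave 0.74, with the lines apart in both. URB1 is a nucleolar protein needed for the large ribosomal subunit. Its probe set 212996_s_at read 71.8 and 151.5 in COLO-320DM cells and 130.4 and 216.4 in 320IWR cells. The lower 320IWR array fell below the higher COLO-320DM array, so the log2 fold change of 0.69 (standard error 0.44, n = 2 arrays per line) was not beyond the spread within a line. Of the dimmer URB1 probe sets, 208395_s_at had both 320IWR arrays higher by a log2 fold change of 0.34 and 217633_at did not separate the lines (-0.04). HUNK is a protein kinase related to AMPK. Its probe set 1555935_s_at read 58.0 and 59.9 in COLO-320DM cells and 41.7 and 46.4 in 320IWR cells, a log2 fold change of -0.42 (standard error 0.13, n = 2 arrays per line). It was the only one of the 27 with both 320IWR arrays lower, and the other HUNK probe set, 219535_at, had 30.9 and 25.9 against 30.7 and 23.9 and overlapped.

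The probe sets differed with their brightness. Of the 27, 15 had a mean log2 intensity of at least 6, and all 15 were higher in 320IWR cells, with log2 fold changes of 0.52 to 1.01 and a median of 0.82. The URB1 probe set 212996_s_at was the only one of these 15 whose arrays overlapped. Counted by gene, 5580 of all 10633 genes with a mean of at least 6 were higher in 320IWR cells. Both 320IWR arrays were higher in 2442 of the 10633. The genes of these probe sets were selected on these values, so nothing is read from the count of 15. The mean is taken over both lines, and the LTN1 probe set 233819_s_at reached 6 only through 320IWR (mean log2 5.52 in COLO-320DM, 6.51 in 320IWR), so it had to differ. The 12 dimmer ones ran from -0.42 to 0.79 with a median of 0.22, and 7 were higher and 5 lower. The dimmer ones came from LTN1, CCT8, BACH1, SCAF4, HUNK, MIS18A and URB1, and both HUNK probe sets were among them. No detection calls come with the intensities, so how far the dim values lie above background is unknown.

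**Figure D2:**
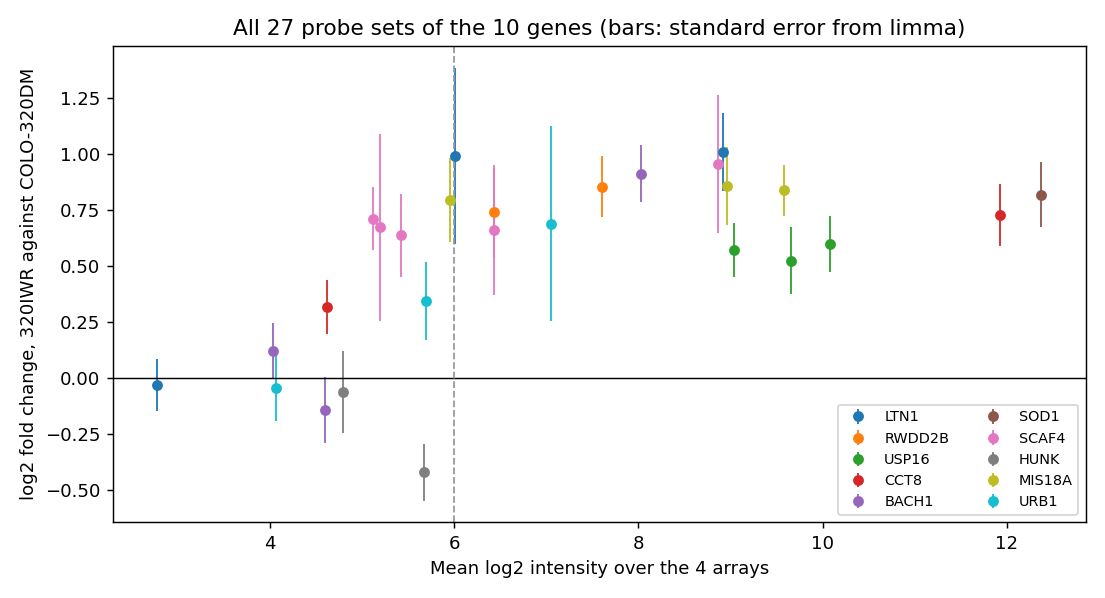
Log2 fold change of 320IWR against COLO-320DM for all 27 probe sets (vertical axis, bars are standard errors from limma) against the mean log2 intensity over the 4 arrays (horizontal axis), coloured by gene, with a dashed line at 6. To the right of the line all 15 probe sets lie between 0.52 and 1.01, and to the left 12 lie between -0.42 and 0.79.

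Along chromosome 21, the bright neighbours of the 10 genes toward the centromere were higher in 320IWR cells as well, while those toward the telomere went either way. The genes were picked from this region with its values known, so these neighbours are a description too. Between LTN1 and URB1 lie 18 other measured genes, with a median log2 fold change of 0.06, and none of them had a mean log2 intensity of at least 6. One of them was called, TIAM1, an exchange factor that activates RAC, with 18.1 and 20.3 in COLO-320DM cells and 93.1 and 103.4 in 320IWR cells (log2 fold change 2.35, limma adjusted p = 0.0142). With any 1 array left out its log2 fold change was 2.27 to 2.44 and its limma adjusted p 0.0638 to 0.195, so it was no longer called. Besides TIAM1, the members of this stretch with the highest mean were KRTAP11-1, KRTAP19-3, CLDN17 and MAP3K7CL, at log2 fold changes of -0.01, 0.47, -0.01 and 0.32, of which KRTAP19-3 alone had both 320IWR arrays higher. In 6 of the 18 genes both 320IWR arrays were higher and in 0 lower, against 4162 and 3468 of all 19775 genes. Those at 0.5 or more were TIAM1, TIAM1-AS1 at 1.16 and KRTAP8-1 at 0.89, 3 of the 18 against 903 of the 19775. Just beyond LTN1 came HEMK2, a methyltransferase, at 1.36, with 46.3 and 63.6 against 123.6 and 156.1, and then LINC00161, a dim noncoding RNA, at -0.14. Just beyond URB1 came URB1-AS1, antisense to it, at 0.32 with overlapping arrays, and EVA1C, dim, at -0.01.

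On the centromere side within the long arm, 13 of 44 measured genes had a mean log2 intensity of at least 6. All 13 were higher in 320IWR cells, with a median of 0.88 and 11 at 0.5 or more. On the telomere side 79 of 167 had such a mean, with a median of 0.03, 43 higher and 36 lower, and 0 at 0.5 or more. Over all 10633 such genes 6.65% were higher by at least 0.5. Genes on the short arm side of the centromere are not among the 44. There LOC105379499, a bright gene, was at -0.68 with both 320IWR arrays lower, and BAGE2 at 0.14 and LINC01667 at -0.03 overlapped. Of the bright genes from NRIP1 to URB1, bounds set after the values were seen, 20 of 20 reached 0.5, of which 9 were from the set of 10 and 11 were not. HSPA13, the next bright gene toward the centromere, was at 0.32 with overlapping arrays, just outside, and NRIP1, just inside, at 0.54. The 11 were NRIP1, USP25, CXADR, BTG3, C21orf91, MRPL39, ATP5PF, GABPA, APP, ADAMTS1 and HEMK2, and all had both 320IWR arrays higher. Over all 10633 bright genes, 2442 had both 320IWR arrays higher. HEMK2 reached the limit of 6 only through 320IWR (mean log2 5.76 in COLO-320DM, 7.12 in 320IWR), so it had to differ. ADAMTS1, a secreted metalloprotease, was the only one called, with 64.1 and 69.6 in COLO-320DM cells and 253.4 and 303.5 in 320IWR cells (log2 fold change 2.05, limma adjusted p = 0.0226). With any 1 array left out its log2 fold change was 1.92 to 2.18 and its limma adjusted p 0.0991 to 0.219. CXADR, the adhesion protein used by coxsackieviruses and adenoviruses, was at 1.52, and GABPA and APP, an ETS-family transcription factor and the amyloid precursor protein, were at 0.57 each. Chromosome 21 was not alone in its share of bright genes higher by at least 0.5, at 19.4% of 103 genes, since chromosomes 11 and 19 had 21.4% and 21.1%.

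**Figure D3:**
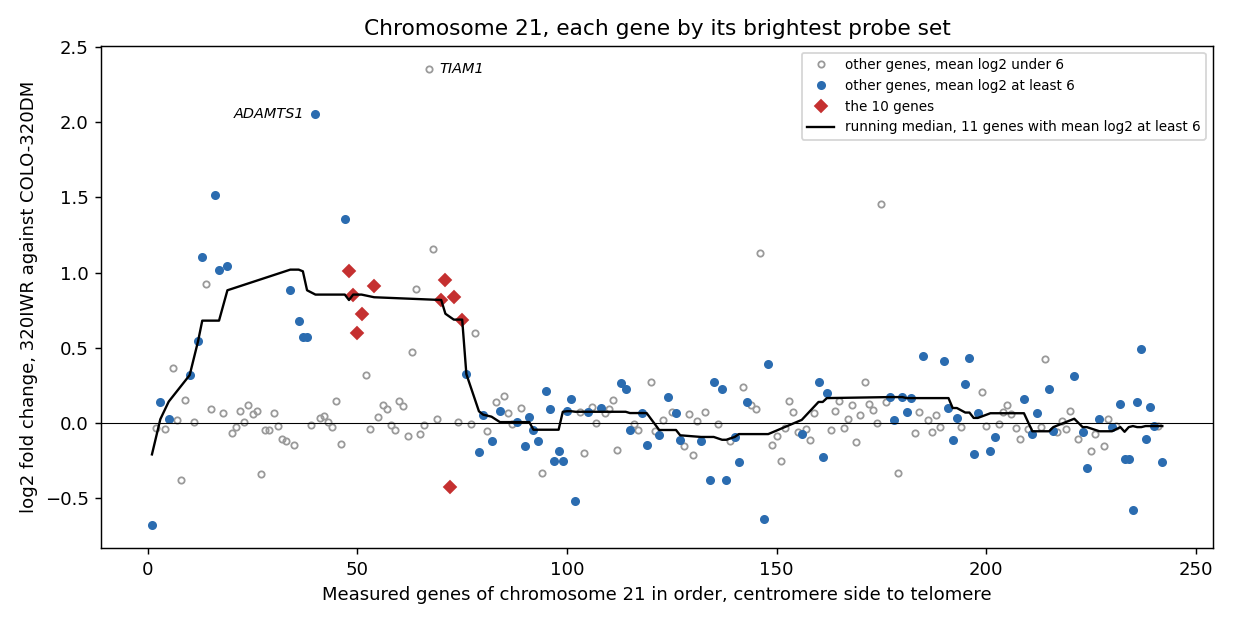
Log2 fold change of 320IWR against COLO-320DM (vertical axis) for 242 measured genes of chromosome 21 in their order toward the telomere of the long arm (horizontal axis), each by its brightest probe set. The first are LOC105379499, LINC01667 and BAGE2, which lie on the short arm side of the centromere. Red diamonds are the 10 genes, filled circles other genes with a mean log2 intensity of at least 6, open circles dimmer genes, and the line is the running median of 11 genes with a mean log2 of at least 6 (members included), which lies above 0.5 from NRIP1 to URB1 and near 0 toward the telomere.

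Partners of the gene products and genes of their pathways were followed in 10 lists with 127 measured genes, none from the set of 10. RWDD2B had no list. None was called, the smallest limma adjusted p was 0.121, and 18 of the 127, or 14.2%, had an unadjusted p under 0.05, beside the 12.3% of all genes. For BACH1, 9 partners and degradation factors had a median log2 fold change of -0.07. The largest absolute log2 fold changes were those of NFE2L2 and KEAP1. NFE2L2, which encodes the activator NRF2 that competes with BACH1, was at 0.70 (856.4 and 952.0 against 1452 and 1475). KEAP1, the adaptor that keeps NRF2 low, was at 0.68 (680.9 and 1037 against 1107 and 1637). NFE2L1 followed in the other direction, at -0.63 (585.9 and 631.6 against 396.2 and 389.1). Of 15 genes of heme, iron and antioxidant metabolism that BACH1 represses, 10 had higher and 5 lower values, with a median of 0.21. NQO1, a quinone reductase, was at 0.87, but its arrays overlapped, 326.3 and 817.8 against 686.5 and 1307, and SRXN1, which repairs peroxiredoxins, was at 0.45 with arrays that also overlapped. For SOD1, 14 genes of superoxide and peroxide defence had a median of 0.01, with GPX1 at -0.84 on a dim probe set and PRDX4 at -0.64, from 7138 and 8117 to 4685 and 5108.

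The other lists had medians between -0.01 and 0.27. The 11 measured partners of CCT8 in the chaperonin and in prefoldin ran from PFDN4 at -0.31 to CCT5 at 0.27, beside 0.73 in CCT8 itself. For LTN1, the 15 genes of ribosome rescue had a median of 0.10, with TCF25, its partner in the ribosome quality control complex, at 0.40 and ASCC3, a helicase that splits collided ribosomes, at -0.28. The 13 genes of the histone H2A ubiquitin cycle, in which USP16 acts, had a median of 0.14 and included ASXL1 at 0.76 and ASXL2 at 0.38, both cofactors of another H2A deubiquitinase. The 13 genes of the RNA polymerase II tail and of 3′ end formation, beside SCAF4, had a median of -0.01, with the cleavage factors CPSF1 at -0.63 and CSTF3 at 0.58. The 12 genes of CENP-A loading, beside MIS18A, had a median of 0.03, with the histone chaperone RBBP7 at -0.76 (3808 and 3935 against 2252 and 2323) and CENPN at -0.52. The 12 genes of early large subunit assembly, beside URB1, had the highest median, 0.27, with the helicase DDX51 at -0.84 and MAK16 at 0.52. DDX51 was the only lower one of the 12 and 11 were higher, beside 10723 higher and 9050 lower of all 19775 genes. The 13 kinases related to AMPK, beside HUNK, had a median of 0.17, with NUAK1 at -0.78 and MARK2 at 0.48. Among the list genes named in this paragraph, the arrays of the lines overlapped in PFDN4, ASCC3, CPSF1 and MARK2. The arrays stood apart in the other named list genes.

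**Figure D4:**
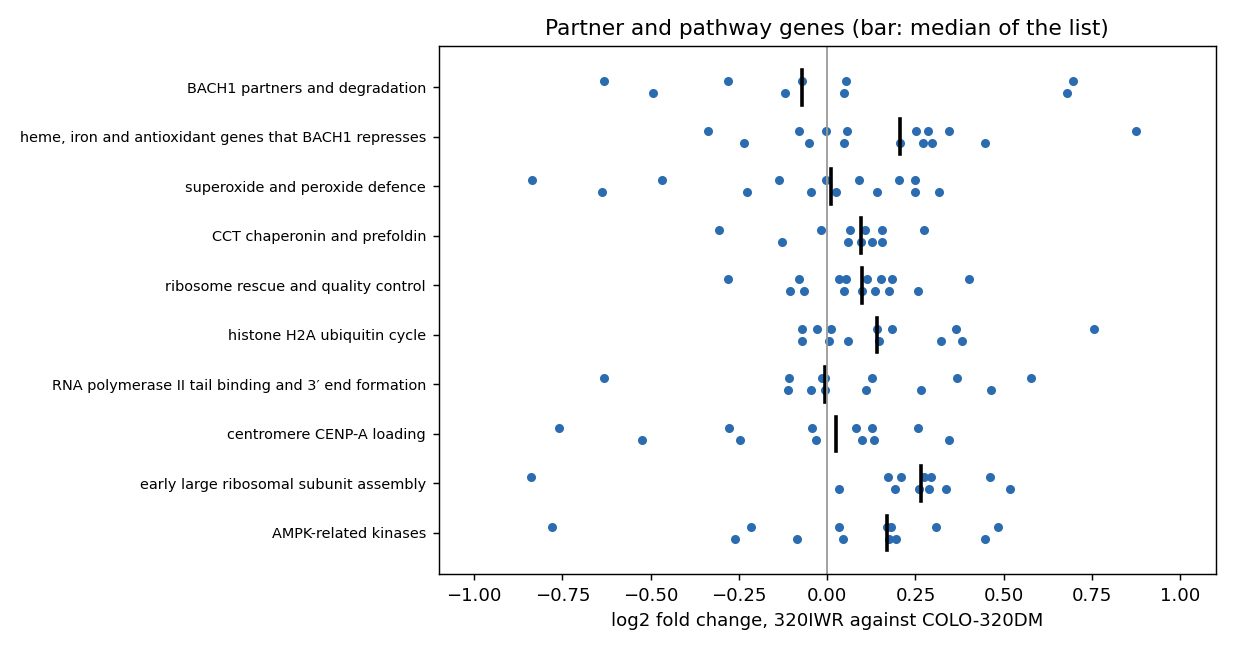
Log2 fold change of 320IWR against COLO-320DM (horizontal axis) for the measured genes of 10 partner and pathway lists (rows), 1 point per gene, with the median of a list as a bar. All 10 medians lie between -0.07 and 0.27.

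The genes outside chromosome 21 whose log2 values over the 4 arrays, centred on their mean, lay nearest to those of BACH1 among 10524 candidates were RNF130, SAAL1 and TMX2, at Euclidean distances of 0.077, 0.080 and 0.083. They lie on chromosomes 5, 11 and 11. For SOD1 they were HSD17B6, MACROD1 and RCCD1 on chromosomes 12, 11 and 15, at 0.058, 0.074 and 0.076. With 4 arrays such nearness describes little more than a similar difference between the lines. RNF130 had a log2 fold change of 0.87 beside 0.91 in BACH1, and HSD17B6 one of 0.80 beside 0.82 in SOD1.

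The arrays were alike in scale, with median intensities from 41.0 to 41.8. The markers of the labelled colon cancer cells could be read only as levels, because no detection calls come with them and intensities of different probe sets are not comparable. The intestinal transcription factor CDX2 read 2723 to 3403, and the epithelial genes EPCAM, CDH1 and KRT19 read 11.1 to 35.1. The summed intensity of 8 epithelial markers was 1913 to 2033 in COLO-320DM cells and 678.1 to 730.3 in 320IWR cells. That difference came from KRT8 and KRT18, which were called lower in 320IWR cells (log2 fold changes -2.26 and -1.67, limma adjusted p = 0.0155 and 0.0322). Of the other 6, CDH1, CLDN3, CLDN4, ELF3 and KRT19 had log2 fold changes of 0.04 to 0.17 and EPCAM one of -0.88, and none was called. Of 7 markers of the intestinal epithelium only KRT20 was called, higher in 320IWR cells (log2 fold change 1.78, limma adjusted p = 0.0412, or 0.0530 when the prior was trended and robust). Their sums, 3765 to 3797 in COLO-320DM cells and 3286 to 3433 in 320IWR cells, are mostly CDX2, which was not called. Besides KRT20 these markers went either way. CDX2 and GPA33 had both 320IWR arrays lower (log2 fold changes -0.27 and -0.31), and LGR5 and VIL1 had both higher (0.80 and 0.09). The arrays overlapped in CDH17 (-0.64) and CDX1 (0.03). The limma adjusted p of these 3 keratins was 0.0656 to 0.296 with any 1 array left out. None of 7 neuroendocrine, 5 leukocyte, 6 fibroblast and 5 endothelial markers was called, and their sums overlapped between the lines except for the neuroendocrine one. That sum was 178.3 to 185.6 in COLO-320DM cells and 163.9 to 173.5 in 320IWR cells. Its difference came from ENO2, with 62.8 and 48.6 against 32.5 and 20.0 (log2 fold change -1.12). CHGA, SYP and SCG2 had both 320IWR arrays higher, at log2 fold changes of 0.32, 0.16 and 0.08. CHGB, INSM1 and SCG3 overlapped. What part these markers have in the values of the 10 genes was not tested, and in bulk RNA fewer cells of a type and less RNA per cell cannot be told apart.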

How the data were processed

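Each of the 4 Affymetrix arrays was assigned to COLO-320DM or 320IWR by its title. The deposited values are normalized probe set intensities that the authors made with RMA, per the submitters' processing notes, without a version, and the study's methods name GeneSpring GX. The arrays were normalized against each other, so a shift common to all genes would hardly be seen. The intensities run from 3.51 to 22475 on a linear scale, so they were brought to log2 values, floored at 1, which none reached. No detection calls or scanner files were used.

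R 4.3.3 and limma 3.58.1 (lmFit and eBayes, line as the only term, constant prior, no filter) were run on 54613 probe sets after 62 controls were left out, with calls made at 2-fold or more and p under 0.05 after Benjamini-Hochberg adjustment. Of these, 41091 have 1 gene symbol, 1801 several and 11721 none in GEO's platform annotation, and none of the symbols needed an update against the gene table of GRCh38.p14. The probe set brightest on average over the log2 values stood for a gene. Gene order came from the same table, and 19735 genes could be placed. The fit was tested on simulated data with the same spread for every probe set and independent arrays. The real arrays differ in both, so this checked the code and not the calls made here. Spread in the tests is that among these 4 arrays alone, and their number limits the precision.

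The 10 genes, the pathway lists, the cell type markers and the neighbours were chosen with earlier results of these data known. The text gives values of all probe sets of the 10 genes, some as ranges, the called neighbours, the 2 nearest measured genes beyond each end, the 5 other genes between the ends with the highest mean, the 2 genes of each list with the largest absolute fold change (none was called), and 3 genes each with the pattern nearest to BACH1 and SOD1. Other genes were named after their values were seen. The alternatives were a block for the replicate number, arrays left out singly, cyclic loess, equal medians, removal of dim probe sets (those under a mean log2 of 6 in both lines), a trended robust prior, no limit on the fold, the average of a gene's probe sets, and leaving out _x_at and _s_at probe sets.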

Additional observations from a re-analysis of the deposited data

How the results depend on the processing

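Of 167 values recomputed under 12 alternatives, 149 counts or values stayed within 1.5 times the main count or moved by less than the SD between replicates, which is wide for URB1. Part of the 149 could not move. With the same replicate numbers in both lines, the block leaves every fold change as it is. The filter on dim probe sets leaves that of each single gene it keeps. The count of 149 is therefore no measure of stability. In 4 of the 167 the sign changed, LTN1 and URB1 as given below and the telomere side's median near 0, from 0.017 to -0.0043 without 320IWR replicate 1 and -0.0061 with cyclic loess. The probe sets of the 10 genes called stayed at 0, and the pathway genes called at 0, under every alternative run for them. Over all probe sets the calls went from 202 to 576 with the replicate block and to 0 to 63 with 1 array left out (0 without either 320IWR array). Same-numbered arrays deviated together (correlation 0.661 over probe sets), but with 2 pairs they share only a number, and the block called 0 probe sets of the 10 genes, and TIAM1, ADAMTS1, KRT8, KRT18 and KRT20 were called with it too. These 5 lost their call when any 1 array was left out, and KRT20 also with the trended robust prior (adjusted p = 0.0530). The median log2 fold change of the 10 genes was 0.83, with 0.75 to 0.84 when 1 array was left out, 0.61 with a gene's probe sets averaged and 0.64 without _x_at and _s_at probe sets (9 genes). The latter setting left LTN1 at -0.03 and URB1 at -0.04, their dimmest probe sets, CCT8 at 0.32 and HUNK at -0.06, and HUNK was at -0.24 with its probe sets averaged. BACH1 was at 0.30 with the mean of its probe sets, and when 1 COLO-320DM array was left out SCAF4 was at 0.60 or 1.31 and URB1 at 0.15 or 1.23. With the filter on dim probe sets, the median of the other genes between the ends was 2.35, which is TIAM1 alone, kept only because it is bright in 320IWR cells, so the filter fixes this value. That of the centromere side was 0.88, with fewer genes tested. Where a line kept 1 array, it was assumed to vary like the other line. Signal over background is unknown and limits the dim probe sets.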
